A study of Rattus norvegicus with 311 samples.

Results

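The genes described here make non-essential amino acids and folate-bound carbon units, or import amino acids: Asns, Phgdh, Psat1, Psph, Shmt2, Mthfd2, Aldh18a1, Pycr1, Slc3a2 and Slc7a5. They were chosen by name as 1 biosynthetic set, and every probe of the rat TempO-Seq count table with such a name was taken. Of the 10 genes, 7 had a row, each with 1 probe, among 22253 probes with 21143 names. Psph, Aldh18a1 and Slc3a2 had none and are not analysed here. All 7 probes passed the filter on low counts on each of the 3 days, at which 12504, 13439 and 13707 probes were tested on days 1, 3 and 7.

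TempO-Seq counts pairs of detector oligonucleotides that are ligated side by side on a transcript, so a level is the count of 1 probe and not of the whole transcript. Hepatocytes of male Sprague Dawley rats were kept alone (monoculture, 156 libraries) or with purified non-parenchymal liver cells (co-culture, 155 libraries) in collagen-coated wells. For the 24 h before lysis on day 1, 3 or 7 after plating they received vehicle, phenobarbital (0.1, 1 or 10 mM), gemfibrozil (10, 100 or 1000 µM), ketoconazole (1, 10 or 30 µM) or GW7647 (0.01, 0.1 or 1 µM). Culture, treatment and day give 78 groups, 65 of 4 libraries, 7 of 3 and 6 of 5. The replicate number is the number of the plate (1, 3, 5, 7 or 9). The labels name neither the vehicle's solvent nor the animals or cell lots behind a plate, so p-values measure the spread between these plates, which may be technical. The wells are bulk samples in which fewer cells of a type and less RNA per cell cannot be told apart.

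Phenobarbital is the classical activator of the nuclear receptor CAR. Gemfibrozil, a lipid-lowering fibrate, and GW7647 are agonists of PPAR-alpha. Ketoconazole, an azole, blocks fungal sterol synthesis and many cytochrome P450 enzymes. Phgdh, Psat1 and Psph turn a glycolytic intermediate into serine. Shmt2 and Mthfd2 take a carbon unit from serine in the mitochondrion and pass it along the folate pathway. Asns makes asparagine from aspartate and glutamine, and Aldh18a1 and Pycr1 make proline from glutamate. Slc7a5 and Slc3a2 are the light and heavy chain of LAT1, an exchanger that imports large neutral amino acids such as leucine. Most of these genes are known targets of ATF4, a transcription factor whose translation rises when cells lack amino acids or when other stresses act on the translation factor eIF2. The liver is a main site of amino acid metabolism, and its hepatocytes both make and break down these amino acids.

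ATF4 binds with C/EBP proteins at a composite element, so the promoter windows of the members (250 bases before to 50 after the start site, RefSeq, build GRCr8) were searched on both strands for TGATGNAA, a core of that element. A window was found by symbol for 9 of the 10 genes, and Aldh18a1 was not matched. Among all 33469 rat windows 1332, or 3.98%, held the letters. Of the members, Pycr1 alone held them, on the strand of the gene between 131 and 124 bases before the start site. A match is a run of letters and not a shown site. The windows of Pycr1 and of Asns are printed because these genes had the largest differences described below. They are given 5′ to 3′ on the strand of the gene, with the motif in capitals, and lie at chr10:106420763-106421062 (minus strand) and chr4:36769366-36769665 (minus strand). The Asns window has no match on either strand.
Pycr1: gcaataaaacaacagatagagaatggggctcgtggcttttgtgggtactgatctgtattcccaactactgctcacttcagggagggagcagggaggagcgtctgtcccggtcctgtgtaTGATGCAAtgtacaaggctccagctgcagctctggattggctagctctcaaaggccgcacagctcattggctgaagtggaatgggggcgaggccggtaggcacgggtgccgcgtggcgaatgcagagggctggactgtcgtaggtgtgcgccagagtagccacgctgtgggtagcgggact
Asns: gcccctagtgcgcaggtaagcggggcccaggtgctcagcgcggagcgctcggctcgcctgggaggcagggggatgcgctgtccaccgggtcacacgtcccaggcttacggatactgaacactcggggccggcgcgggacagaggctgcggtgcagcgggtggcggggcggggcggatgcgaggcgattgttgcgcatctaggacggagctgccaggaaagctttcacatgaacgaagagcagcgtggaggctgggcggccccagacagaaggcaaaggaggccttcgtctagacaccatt

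The libraries held 412414 to 12272575 counts (median 6054414), and 1 of them (ketoconazole 30 µM, monoculture, day 7, plate 1) was under 1000000. Over all libraries the median count was 64 for Asns, 73 for Mthfd2, 83 for Phgdh, 90 for Pycr1, 179 for Shmt2 and 51 for Slc7a5. Asns had fewer than 10 counts in 28 libraries and none in 7, and Slc7a5 had fewer than 10 in 12, so single low values of these genes carry a wide counting error. Levels are given in CPM, TMM-scaled counts for every 1000000 of a library, and differences as log2 fold changes with their standard error. The labels conflict for 33 monoculture libraries that are described as phenobarbital but carry ketoconazole as compound label. They were used as phenobarbital, and co-culture values, which do not use them, are given for the members called with phenobarbital against vehicle and for the lists of other amino acid genes.

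Plate 9 stood apart and has to be named before the results. It holds 9 libraries, all of day 3, with gemfibrozil at each dose in both cultures, GW7647 1 µM in both and GW7647 0.1 µM in co-culture, and no vehicle. Asns was at 182 to 415 CPM (611 to 2597 counts) on plate 9 and at 0 to 53.1 CPM in the other libraries of the same groups. In 9 of 9 cases the plate 9 library was above all others of its group, with a median log2 difference of 4.56. Mthfd2 was above its group in 9 of 9 (median 2.40), Pycr1 in 7 of 9 (median 1.66) and Psat1 in 6 of 9 (median 0.65). Phgdh was below its group in 7 of 9 (median -2.27) and Shmt2 in 7 of 9 (median -0.78). Slc7a5 was above its group in 1 and below it in 3. The shifts of Asns and Mthfd2 were present at the lowest gemfibrozil dose as at the highest. Shmt2 was below its group at gemfibrozil 10 µM and within it at 1000 µM in both cultures. Phgdh in monoculture was below its group at 10 µM (4.03 CPM) and above it at 1000 µM (43.75 CPM). What set plate 9 apart was not tested. Calls of day 3 against vehicle and between compounds, and the counts of the other gene lists, are therefore given with and without it.

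**Figure D1:**
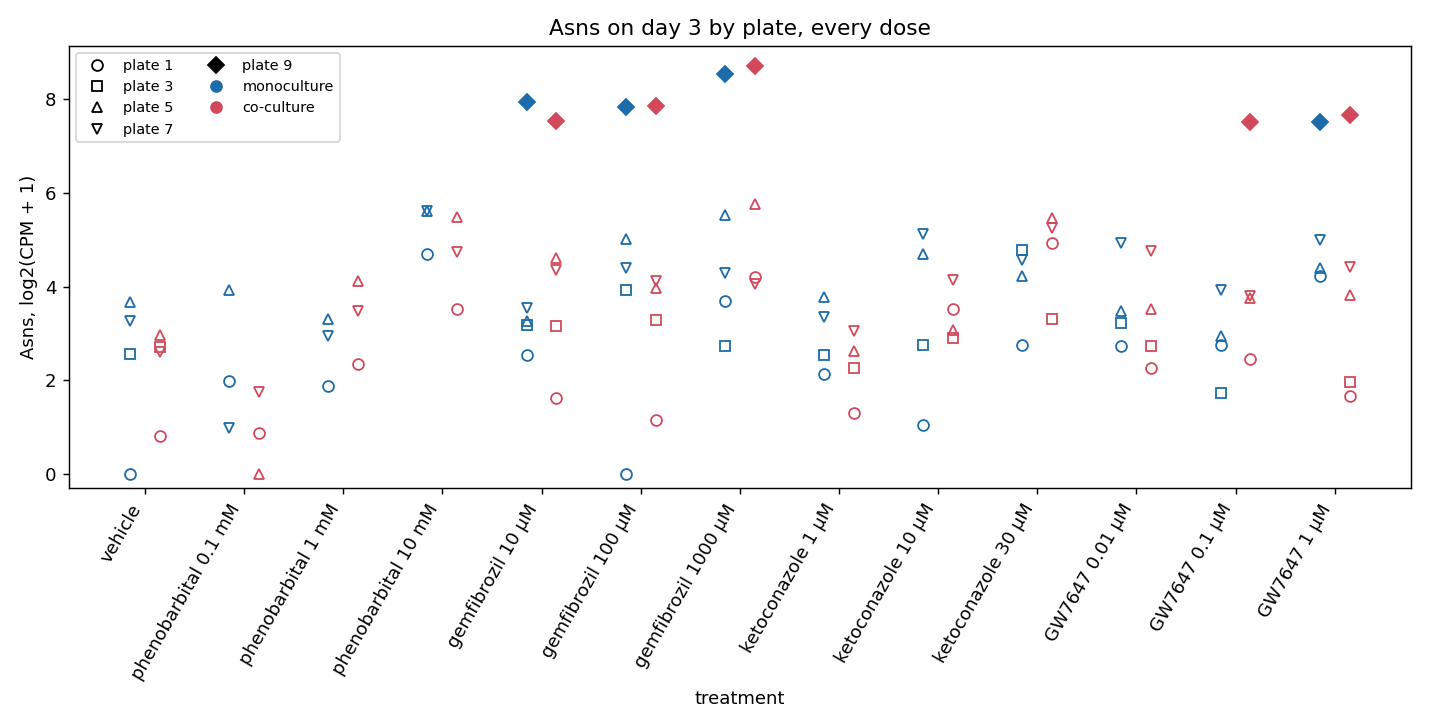
Asns on day 3 in every library, as log2(CPM + 1) on the vertical axis, by treatment on the horizontal axis. Marker shapes stand for plates and colours for cultures. The 9 libraries of plate 9 lie at 182 to 415 CPM whatever the dose, above every other library of their groups, which lie at 0 to 53.1 CPM.

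In vehicle, the question was how the members changed as the cultures aged. Shmt2 fell, and the other members except Slc7a5 did not pass the test at any step. In co-culture Shmt2 was at 40.4, 59.7, 49.8 and 57.0 CPM on plates 1, 3, 5 and 7 on day 1, at 18.2, 19.9, 24.8 and 19.5 on day 3 and at 14.9, 15.2, 15.4 and 12.9 on day 7. In monoculture it was at 47.5, 53.4, 72.6 and 69.9 on day 1, at 23.1, 23.2, 30.6 and 27.2 on day 3 and at 16.3, 28.9, 13.6 and 17.5 on day 7. All 8 libraries of day 1 lay above all 16 of the later days. Averaged over both cultures, Shmt2 fell by 1.21 ± 0.18 (log2, adjusted p = 6.666e-05, edgeR quasi-likelihood test) from day 1 to day 3 and by 1.64 ± 0.18 (adjusted p = 2.461e-07) from day 1 to day 7. The step from day 3 to day 7 was -0.43 ± 0.18 (adjusted p = 0.0557).

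Slc7a5 went the other way. Its level in the 8 vehicle libraries ran from 2.13 to 7.62 CPM (median 4.96) on day 1, from 2.43 to 12.4 (median 8.23) on day 3 and from 2.92 to 20.3 (median 7.72) on day 7, and the days overlap. It rose by 1.05 ± 0.38 from day 1 to day 7 (adjusted p = 0.0285). The plate block gave 0.92 (adjusted p = 0.0517). On plate 5 day 7 held 20.3 and 16.0 CPM, and without that plate the difference was 0.36 (adjusted p = 0.549). The call was also lost without plate 1 (0.97, adjusted p = 0.0735) or plate 3 (1.27, adjusted p = 0.0565). In all, 1 of 7 members was called from day 1 to 3, 2 from day 1 to 7 and 0 from day 3 to 7 (1 at an unadjusted p under 0.05, and 0 with DESeq2), against 21.3%, 43.7% and 40.8% of all probes tested. The levels of cell type markers in vehicle changed over the same time. The summed level of 7 measured stellate and mesenchymal markers had a median of 20 CPM on day 1, 91.4 on day 3 and 3060 on day 7, and that of 8 hepatocyte markers (albumin, transthyretin and others) 48800, 42400 and 11000. The median mesenchymal sum was 18.9 CPM on day 1 and 1760 on day 7 in monoculture, and 20 and 4520 in co-culture. The part of these marker changes in the fall of Shmt2 was not tested.

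None of the remaining members passed the test between vehicle days. Asns was at 10.6 ± 1.72, 5.44 ± 3.87 and 9.04 ± 5.57 CPM (mean ± SD, n = 8) on days 1, 3 and 7. Psat1, which adds the amino group in serine synthesis, was at 50.2 ± 9.17, 40.3 ± 8.86 and 54.6 ± 36.4. Phgdh, the first enzyme of that route, was at 14.3 ± 6.28, 13.9 ± 4.10 and 13.7 ± 4.92. Mthfd2 was at 13.1 ± 3.03, 9.28 ± 2.79 and 11.7 ± 2.92, and Pycr1 at 13.2 ± 3.90, 12.8 ± 4.45 and 14.2 ± 3.32. The day 7 spread of Psat1 followed the plates, with 124.6, 66.3, 84.9 and 56.4 CPM on plates 3 and 1 and 21.2 to 32.9 on plates 5 and 7.

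Whether non-parenchymal cells alter these genes was asked by comparing co-culture with monoculture in vehicle. None of the 7 members was called on any day with edgeR or with DESeq2, and none had an unadjusted p under 0.05. The share of all probes called was 0% on each day (0, 0 and 0). The differences lay between -0.52 ± 1.31 (Asns, day 3) and 0.36 ± 0.42 (Pycr1, day 1), so standard errors as wide as these would have hidden moderate differences. The response to each top dose was also compared between cultures, in 12 comparisons. No member was called and 0 of 84 values had an unadjusted p under 0.05 (the smallest was 0.0685, Phgdh with gemfibrozil on day 3). Of all probes, 0% were called in 11 of these comparisons and 0.0219% with ketoconazole on day 7. Responses below are the mean over both cultures, and the comparisons of a day share its 8 vehicle libraries. The fit without plate as a block treats the co-culture and monoculture libraries of a plate as independent, though libraries of the same plate deviated together.

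At the highest doses members rose with phenobarbital, gemfibrozil and ketoconazole on days 1 and 3, and none fell. With phenobarbital 10 mM 4 of 7 members rose on day 1, 3 on day 3 and 1 on day 7, against 9.26%, 5.1% and 2.81% of all probes. Gemfibrozil 1000 µM raised 3 on day 1, 4 on day 3 and 0 on day 7, against 9.84%, 13.1% and 0% of all probes. With ketoconazole 30 µM 5 rose on day 1, 1 on day 3 and 0 on day 7, against 8.13%, 1.14% and 0.372%. GW7647 1 µM raised 0 on each day, against 0.312%, 0.275% and 0.0219%. The members' median log2 difference was 1.24, 1.32 and 0.52 with phenobarbital on days 1, 3 and 7, where all probes had 0.08, 0.18 and 0.007. It was 0.65, 1.05 and 0.009 with gemfibrozil (all probes 0.10, 0.27 and -0.022), and 1.33, 0.70 and 0.26 with ketoconazole (all probes 0.06, 0.17 and -0.12). With GW7647 it was -0.21, 0.40 and 0.026 (all probes 0.02, 0.10 and -0.028).

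In co-culture alone, where the compound labels do not conflict, phenobarbital raised 0, 1 and 0 members on days 1, 3 and 7, against 1.37%, 1.39% and 0.0219% of all probes, and 4, 4 and 1 had an unadjusted p under 0.05. Co-culture alone holds fewer libraries, and DESeq2 was not run on it.

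The counts of days 3 and 7 moved with the way plates were handled. With plate as a block phenobarbital raised 6 members on day 3 and 3 on day 7, and ketoconazole raised 5 on day 3. In these comparisons the block called 3579, 1834 and 1697 of all probes in either direction, of 13439 tested on day 3 and 13707 on day 7. Without the block 686 were higher and 1014 lower, 385 and 450, and 153 and 275, so the block called more of all probes too. With plate 9 left out of day 3, phenobarbital raised 7 of 7 members (8.74% of all probes), gemfibrozil 2 (4.29%), ketoconazole 3 (2.4%) and GW7647 0 (0.193%). On day 1 the counts were lower without plate 5: phenobarbital raised 1 member, gemfibrozil 0 and ketoconazole 3. Mthfd2, Pycr1 and Slc7a5, no longer called with phenobarbital, kept differences of 0.90 to 1.27 just past the threshold (adjusted p = 0.0571 to 0.0609). Without plate 1 gemfibrozil raised 1 on day 1, without plate 3 or without plate 5 it raised 2 on day 3, and the single day 3 call of ketoconazole was lost when plate 1, 3, 5 or 7 was left out. Without plate 3 or plate 7 phenobarbital raised 0 on day 7, and without plate 1 it raised 2. Shares of all probes are not given here for the fits without plate 1, 3, 5 or 7. For the counts of 0, an unadjusted p under 0.05 was found for 0 members with gemfibrozil and 1 (Asns) with ketoconazole on day 7, and for 1, 2 and 0 with GW7647 on days 1, 3 and 7. DESeq2 called 0 in these cases except 2 with GW7647 on day 3.

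**Figure D2:**
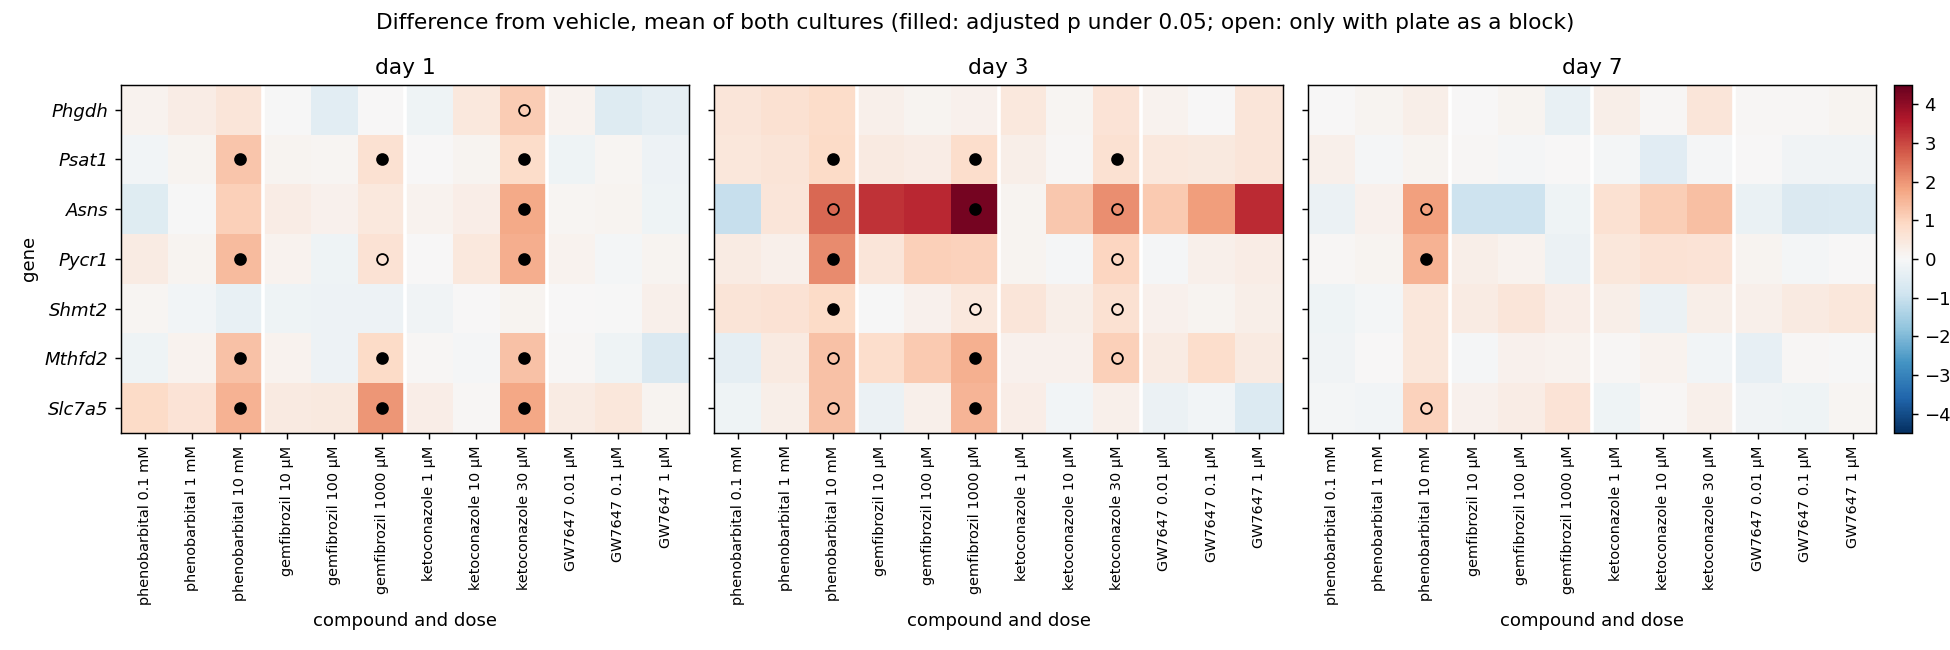
Log2 fold change from vehicle, mean of both cultures, for the 7 members (rows) at every compound and dose (columns) on days 1, 3 and 7. A filled dot marks an adjusted p under 0.05 and an open dot one that holds only with plate as a block. Filled dots lie at the top doses of phenobarbital, gemfibrozil and ketoconazole, and none at a lower dose or with GW7647.

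Serine synthesis was represented by Psat1 and Phgdh. Psat1 in vehicle on day 1 ran from 38.6 to 63.9 CPM (median 49.6, 8 libraries). With phenobarbital 10 mM it was at 98.5, 126, 106 and 85.3 CPM in co-culture (plates 1, 3, 5 and 7) and at 89.9, 143.6, 211 and 77.8 in monoculture. All 8 treated libraries lay above all 8 of vehicle, and the difference was 1.24 ± 0.23 (adjusted p = 5.561e-05). In co-culture alone it was 1.08 ± 0.33 (adjusted p = 0.0507). Ketoconazole gave 60.6 to 132 CPM (median 84.7) and a difference of 0.83 ± 0.23 (adjusted p = 0.00648), and without plate 5 it was 0.58 (adjusted p = 0.180). Gemfibrozil gave 26.1 to 157 CPM (median 78.2) and 0.69 ± 0.23 (adjusted p = 0.0281), which was lost without plate 1 (0.71, adjusted p = 0.103), plate 3 (0.47, adjusted p = 0.219) or plate 5 (0.47, adjusted p = 0.279).

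On day 3 Psat1 was the 1 member called with all 3 of these compounds in the fit of all libraries. With plate 9 left out it was Asns instead, which also passed with all 3 under the plate block. Psat1 in vehicle ran from 24.7 to 53.2 CPM (median 39.3). Phenobarbital gave 58.8, 58.8 and 104 CPM in co-culture and 72.7, 62.5 and 85.6 in monoculture on plates 1, 5 and 7, all above vehicle, and a difference of 0.87 ± 0.22 (adjusted p = 0.00425, 0.88 and 0.0730 without plate 7). In co-culture alone the value was 0.89 ± 0.31 (adjusted p = 0.0844). Ketoconazole gave 52.6 to 72.3 CPM and 0.68 ± 0.21 (adjusted p = 0.0490), a call that was lost when any 1 of plates 1, 3, 5 and 7 was left out. Gemfibrozil gave 33.4 to 149.5 CPM and 0.81 ± 0.20 (adjusted p = 0.00424), with both highest values on plate 9, and without that plate 0.46 ± 0.18 (adjusted p = 0.0988). On day 7 the Psat1 differences at the 4 top doses lay between -0.155 and 0.13, and none passed the test.

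Phgdh did not pass the test with any top dose in the fit without plate as a block. With ketoconazole on day 1 it was at 64.8, 17.0, 27.5 and 12.7 CPM in co-culture and 72.8, 27.7, 7.40 and 12.9 in monoculture, beside 5.40 to 22.1 in vehicle. Plate 1 was the highest in both cultures, and the groups overlap. The difference was 1.13 ± 0.47 (adjusted p = 0.0855), and the plate block gave 0.93 (adjusted p = 0.0222). On day 3 phenobarbital gave 0.83 ± 0.42 (adjusted p = 0.176), and 0.82 ± 0.30 (adjusted p = 0.0407) with plate 9 left out. The Phgdh levels of that comparison were 17.9 to 39.3 CPM with phenobarbital and 8.496 to 20.99 in vehicle.

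Asns had the largest differences and the widest spread. On day 1 its vehicle libraries were close together, at 8.75 to 13.6 CPM (median 9.79). Ketoconazole 30 µM gave 0.276, 36.5, 60.9 and 21.2 CPM in co-culture and 1.59, 18.4, 100.9 and 31.4 in monoculture on plates 1, 3, 5 and 7. Plate 1 was below vehicle in both cultures and the other 6 libraries were above it. The difference of 1.71 ± 0.52 (adjusted p = 0.0143) passed the test, and without plate 5 it was 0.88 (adjusted p = 0.468), without plate 3 1.63 (adjusted p = 0.0559) and without plate 7 1.84 (adjusted p = 0.0561). Phenobarbital gave 1.86 to 46.7 CPM (median 19.98) and 1.07 ± 0.51 (adjusted p = 0.138), again with the lowest library on plate 1.

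On day 3 Asns in vehicle was at 0.759, 5.51, 6.80 and 5.05 CPM in co-culture and at 0, 4.92, 11.8 and 8.64 in monoculture. With gemfibrozil 1000 µM it was at 17.4, 53.1, 15.6 and 415 CPM in co-culture (plates 1, 5, 7 and 9) and at 11.9, 5.63, 45.4, 18.7 and 372.5 in monoculture (plates 1, 3, 5, 7 and 9). The 2 libraries of plate 9 stood far above the others, and without them all but the monoculture library of plate 3 lay at or above the highest vehicle library. The difference was 4.32 ± 1.01 (adjusted p = 0.00218), 2.15 ± 0.64 (adjusted p = 0.0242) without plate 9 and 2.16 (adjusted p = 2.354e-04) with plate as a block. Phenobarbital gave 10.6, 44.1 and 25.6 CPM in co-culture and 24.8, 48.3 and 47.8 in monoculture on plates 1, 5 and 7, and all but 1 were above every vehicle library. Its difference of 2.58 ± 0.99 missed the threshold (adjusted p = 0.0694), but held without plate 9 (2.58 ± 0.66, adjusted p = 0.00314) and under the plate block (2.57, adjusted p = 1.783e-05). Ketoconazole gave 29.4, 8.90, 43.1 and 37.2 CPM in co-culture and 5.75, 26.6, 17.6 and 22.7 in monoculture, and a difference of 2.08 ± 0.94 (adjusted p = 0.226), 2.08 ± 0.62 (adjusted p = 0.0306) without plate 9 and 2.29 (adjusted p = 1.537e-04) with plate as a block.

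GW7647 1 µM on day 3 gave a fitted Asns difference of 3.36 ± 0.97 (adjusted p = 0.0727). Plate 9 held 202 and 183 CPM, and the other 7 libraries ran from 2.17 to 31.0. Without plate 9 the difference was 1.44 ± 0.63 (adjusted p = 0.612). On day 7 Asns ran from 2.88 to 18.9 CPM in vehicle. With phenobarbital it was at 19.9, 45.2, 10.8 and 43.9 CPM in co-culture and at 28.7, 53.1, 10.1 and 53.7 in monoculture, so that plates 1, 3 and 7 were above all vehicle libraries and plate 5 was not. The difference was 1.84 ± 0.63 (adjusted p = 0.0611), and 1.82 (adjusted p = 0.0172) with plate as a block. In each of the 8 pairs of treated and vehicle library from the same plate and culture the treated one was higher.

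Pycr1, the last enzyme of proline synthesis, rose with phenobarbital on all 3 days and with ketoconazole on day 1. On day 1 vehicle ran from 7.65 to 19.0 CPM (median 14.0). Phenobarbital gave 33.5, 25.3, 43.4 and 21.4 CPM in co-culture and 34.9, 21.2, 69.0 and 26.4 in monoculture, with no overlap, and a difference of 1.41 ± 0.30 (adjusted p = 3.452e-04). In co-culture alone it was 1.09 ± 0.42 (adjusted p = 0.136), and without plate 5 the mean over cultures was 0.90 (adjusted p = 0.0571). Ketoconazole gave 51.0, 27.9, 37.4 and 48.6 CPM in co-culture and 40.6, 39.5, 30.3 and 40.7 in monoculture, again with no overlap, and 1.63 ± 0.30 (adjusted p = 3.541e-05). Gemfibrozil gave 8.37 to 39.8 CPM and 0.65 ± 0.29 (adjusted p = 0.113, with plate as a block 0.65 and 0.0461).

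On day 3 Pycr1 was at 58.1, 38.8 and 52.0 CPM in co-culture and 59.2, 50.7 and 72.6 in monoculture with phenobarbital, and at 9.10 to 23.1 in vehicle. The groups do not overlap, and the difference of 2.12 ± 0.45 (adjusted p = 4.777e-04) was 2.22 ± 0.64 (adjusted p = 0.0341) in co-culture alone and 2.11 ± 0.37 (adjusted p = 1.379e-05) without plate 9. Ketoconazole gave 9.99 to 46.5 CPM and 0.96 ± 0.42 (adjusted p = 0.203, and 0.90 with an adjusted p of 0.0332 under the plate block). Gemfibrozil gave 5.05 to 75.3 CPM and 1.05 ± 0.41 (adjusted p = 0.0556), and 0.75 ± 0.35 (adjusted p = 0.168) without plate 9. On day 7 Pycr1 was the 1 member called, with phenobarbital alone. It was at 19.7, 63.5, 19.2 and 50.6 CPM in co-culture and at 18.7, 95.0, 14.1 and 58.5 in monoculture, beside 8.76 to 19.5 in vehicle. Plates 3 and 7 were high and plates 1 and 5, at 14.1 to 19.7 CPM, lay within or just above the vehicle range. The difference was 1.55 ± 0.33 (adjusted p = 0.00143), 1.30 ± 0.46 (adjusted p = 0.439) in co-culture alone, 1.13 (adjusted p = 0.1995) without plate 3 and 1.25 (adjusted p = 0.0741) without plate 7.

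**Figure D3:**
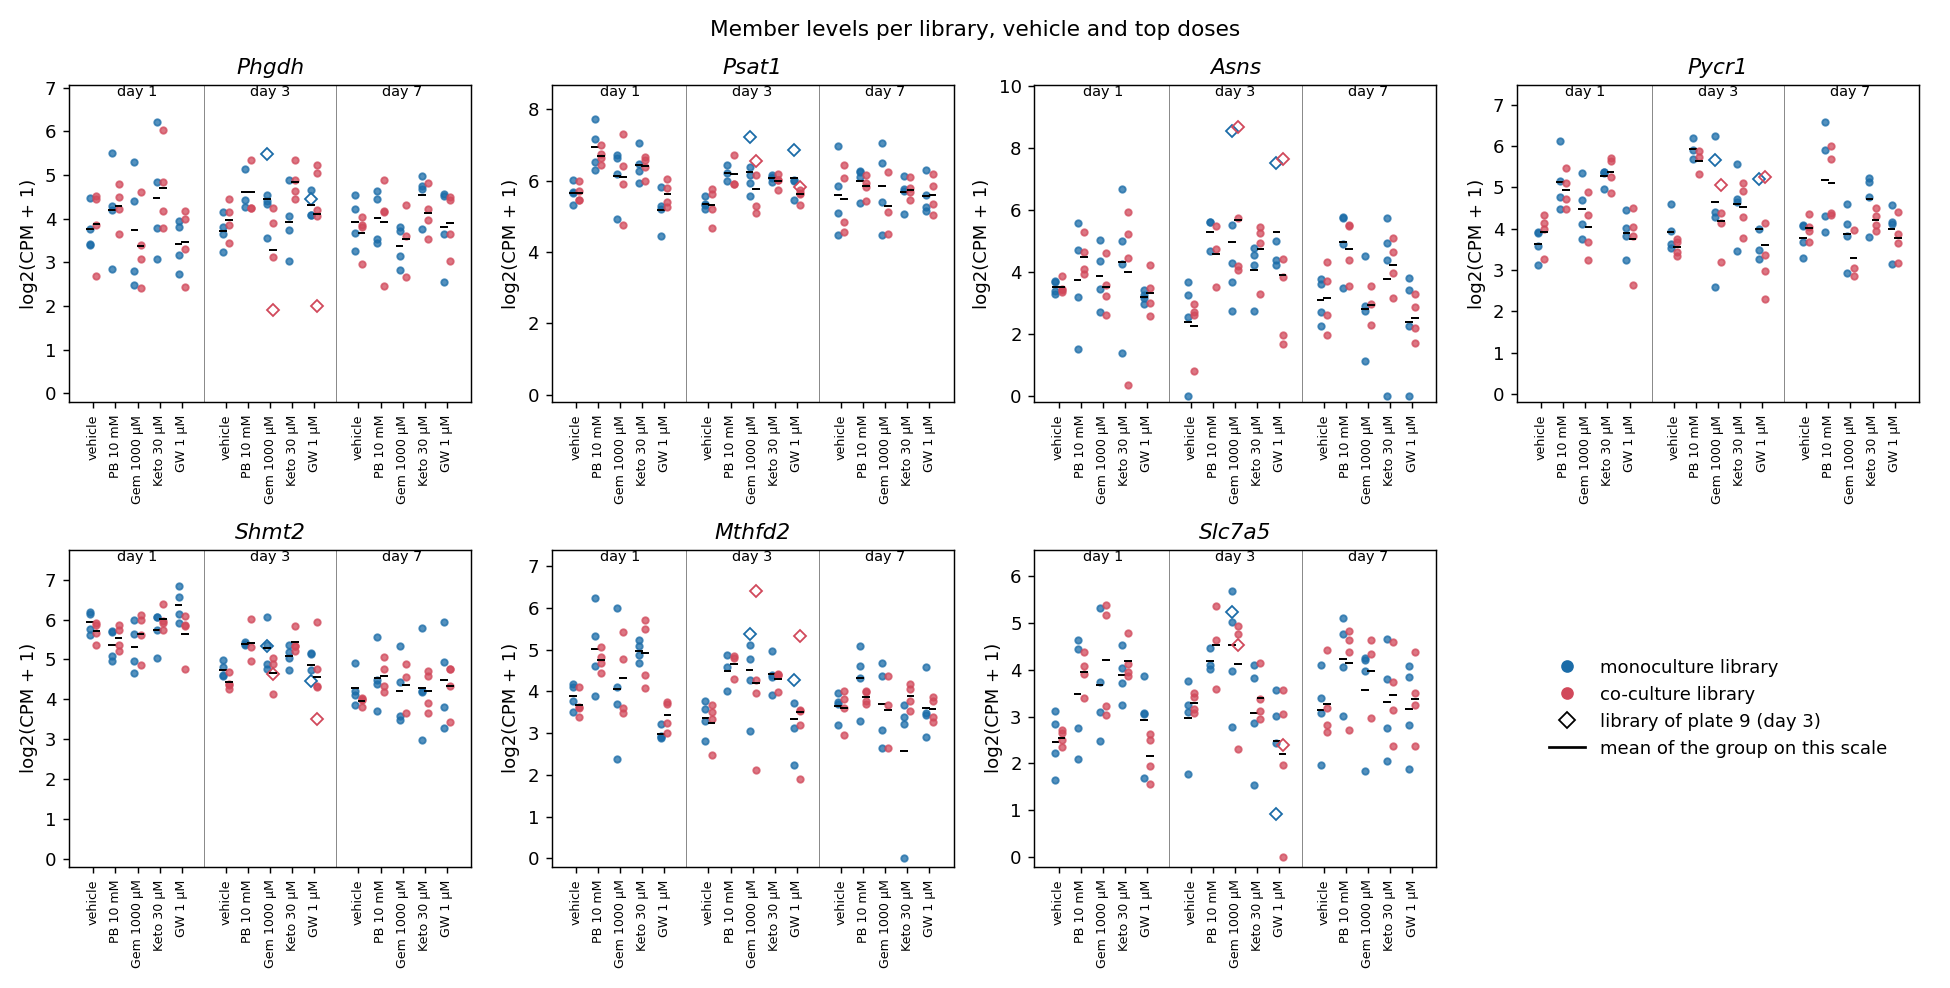
Level of each member per library, as log2(CPM + 1), in vehicle and at the top doses (PB, phenobarbital; Gem, gemfibrozil; Keto, ketoconazole; GW, GW7647) on days 1, 3 and 7. Points are libraries coloured by culture, open diamonds are libraries of plate 9 and short bars are group means on this scale. Pycr1 with phenobarbital lies above every vehicle library on days 1 and 3, and Shmt2 lies lower on days 3 and 7 than on day 1 in vehicle.

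The mitochondrial one-carbon enzymes Mthfd2 and Shmt2 behaved unlike each other. Mthfd2 in vehicle on day 1 ran from 9.49 to 17.1 CPM (median 11.99). Ketoconazole gave 16.0, 51.3, 44.5 and 19.97 CPM in co-culture and 24.5, 32.9, 36.5 and 28.5 in monoculture, and 1.33 ± 0.30 (adjusted p = 8.33e-04). Phenobarbital gave 27.5, 24.6, 32.3 and 20.8 CPM in co-culture and 13.8, 23.6, 74.8 and 39.0 in monoculture, and 1.30 ± 0.30 (adjusted p = 0.00118). In each case 7 of 8 treated libraries were above every vehicle library. For phenobarbital the value was 1.14 ± 0.43 (adjusted p = 0.124) in co-culture alone and 0.93 (adjusted p = 0.0609) without plate 5. With gemfibrozil Mthfd2 rose by 0.87 ± 0.30 (adjusted p = 0.0338), but its libraries split: 42.0 and 62.8 CPM on plate 5, 26.2 and 12.03 on plate 1, 11.1 and 16.3 on plate 3 and 10.3 and 4.24 on plate 7 (co-culture and monoculture). Without plate 5 the difference was -0.022 (adjusted p = 0.979), and without plate 1 it was 0.92 (adjusted p = 0.0854).

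On day 3 Mthfd2 rose with gemfibrozil by 1.60 ± 0.53 (adjusted p = 0.0246), a value of 0.80 ± 0.39 (adjusted p = 0.191) without plate 9 and 0.81 (adjusted p = 0.115) with plate as a block. It missed the threshold as well without plate 1 (1.86, adjusted p = 0.0542), plate 3 (1.63, adjusted p = 0.0655) or plate 5 (1.82, adjusted p = 0.0785). The libraries were at 14.7, 18.5, 3.33 and 83.7 CPM in co-culture (plates 1, 5, 7 and 9) and 18.3, 26.4, 33.4, 7.32 and 40.7 in monoculture (plates 1, 3, 5, 7 and 9), so plate 9 was highest and plate 7 lowest in both cultures. Phenobarbital gave 15.2 to 28.3 CPM and ketoconazole 14.1 to 30.2, both entirely above the vehicle range of 4.55 to 12.7. These 2 differences, 1.32 ± 0.56 (adjusted p = 0.108) and 1.09 ± 0.53 (adjusted p = 0.270), missed the threshold in the fit of all libraries. With plate as a block they were 1.38 (adjusted p = 0.00675) and 1.098 (adjusted p = 0.0391), and without plate 9 1.31 ± 0.40 (adjusted p = 0.0147) and 1.09 ± 0.38 (adjusted p = 0.0676). On day 7 the Mthfd2 differences at the top doses lay between -0.13 and 0.52, and none passed the test.

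Shmt2 did not pass the test with any compound on day 1, where its differences ran from -0.33 ± 0.22 (phenobarbital) to 0.25 ± 0.22 (GW7647). On day 3, when its vehicle level had fallen to 18.2 to 30.6 CPM, phenobarbital gave 63.2, 29.9 and 38.9 CPM in co-culture and 41.0, 40.3 and 42.2 in monoculture. The difference was 0.88 ± 0.26 (adjusted p = 0.0176), 1.13 ± 0.37 (adjusted p = 0.0682) in co-culture alone and 0.85 (adjusted p = 0.0856) without plate 1. Ketoconazole gave 25.7 to 56.6 CPM and 0.70 ± 0.25 (adjusted p = 0.103), 0.70 ± 0.22 (adjusted p = 0.0380) without plate 9 and 0.67 (adjusted p = 0.0269) with plate as a block. Gemfibrozil gave 16.5 to 66.4 CPM and 0.49 ± 0.24 (adjusted p = 0.132, with plate as a block 0.67 and 0.0196), and 0.48 ± 0.22 (adjusted p = 0.165) without plate 9.

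Slc7a5, the transporter chain, rose on day 1 with all 3 compounds. Ketoconazole gave 26.5, 14.4, 13.5 and 16.3 CPM in co-culture and 22.0, 8.42, 15.3 and 12.2 in monoculture, all above the vehicle range of 2.13 to 7.62, and 1.74 ± 0.39 (adjusted p = 6.528e-04). Phenobarbital gave 15.9, 9.46, 19.8 and 14.1 CPM in co-culture and 3.30, 5.79, 20.7 and 23.6 in monoculture, and 1.55 ± 0.39 (adjusted p = 0.00271). For phenobarbital the value was 1.62 ± 0.55 (adjusted p = 0.0866) in co-culture alone and 1.27 (adjusted p = 0.0593) without plate 5. Gemfibrozil gave 35.1, 8.39, 40.5 and 7.18 CPM in co-culture and 12.4, 4.61, 38.9 and 7.57 in monoculture, and 2.00 ± 0.39 (adjusted p = 1.864e-04). Plates 1 and 5 were high, plates 3 and 7 lay at 4.61 to 8.39 CPM near the vehicle range, and without plate 5 the difference was 1.21 (adjusted p = 0.0874).

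On day 3 Slc7a5 rose with gemfibrozil by 1.55 ± 0.46 (adjusted p = 0.0143), and by 1.45 ± 0.48 (adjusted p = 0.0441) without plate 9. Libraries were at 29.3, 26.1, 3.93 and 21.9 CPM in co-culture (plates 1, 5, 7 and 9) and at 14.6, 50.0, 31.3, 5.86 and 36.4 in monoculture (plates 1, 3, 5, 7 and 9), beside 2.43 to 12.4 in vehicle. Plate 7 lay within vehicle and all other plates above it. The call was lost without plate 3 (1.34, adjusted p = 0.0644) or plate 5 (1.62, adjusted p = 0.0932). Phenobarbital gave 39.9, 10.98 and 23.8 CPM in co-culture and 16.1, 15.2 and 21.0 in monoculture, and 1.33 ± 0.50 (adjusted p = 0.0621, with plate as a block 1.52 and 0.0114). On day 7 it gave 5.602 to 33.4 CPM (median 21.8) and 1.05 ± 0.46 (adjusted p = 0.163, with plate as a block 1.38 and 0.00412).

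Treated and vehicle libraries of the same plate, day and culture were set side by side as the mean log2 CPM difference of the 7 members. A plate can give a pair in each culture, so pairs of the same plate are not independent. With ketoconazole the mean was above 0 in 8 of 8 pairs on day 1 (0.34 to 1.51), 8 of 8 on day 3 (0.25 to 1.58) and 6 of 8 on day 7 (-0.98 to 0.72). With phenobarbital it was above 0 in 8 of 8 (0.18 to 1.89), 6 of 6 (0.84 to 2.22) and 8 of 8 (0.12 to 1.52). Gemfibrozil had 4 of 8 (-0.47 to 1.60), 5 of 7 (-0.24 to 1.54) and 3 of 7 (-0.46 to 0.73), and GW7647 had 3 of 8 (-0.72 to 0.05), 4 of 7 (-0.39 to 1.13) and 4 of 8 (-0.37 to 0.21). The gemfibrozil pairs split by plate: plates 1 and 5 were above 0 and plates 3 and 7 below 0 on day 1 in both cultures, and plate 7 alone was below 0 on day 3.

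**Figure D4:**
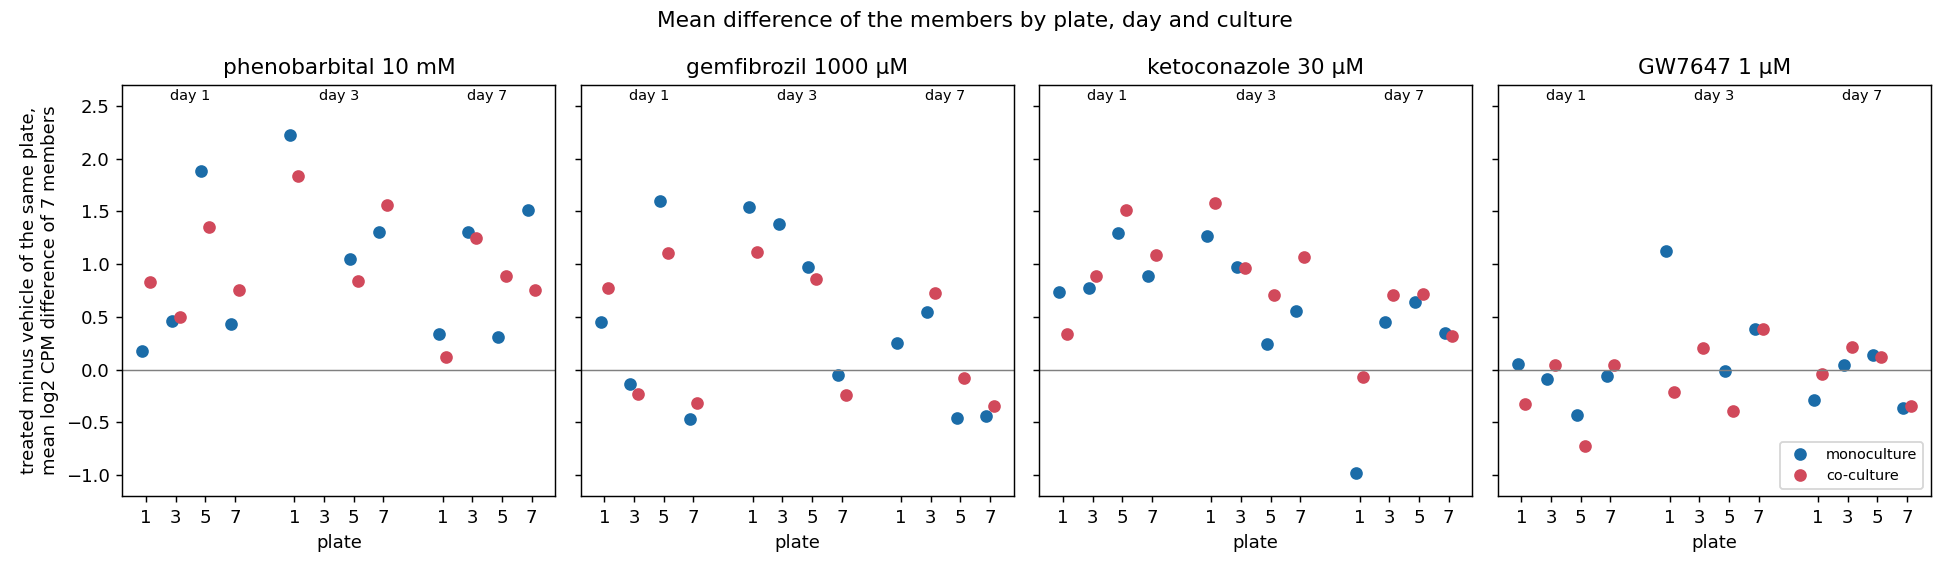
Mean log2 CPM difference of the 7 members between the treated library and the vehicle library of the same plate, day and culture (vertical axis), by plate and day, for the top dose of each compound. Points are pairs coloured by culture. Phenobarbital lies above 0 on all days (0.12 to 2.22), and gemfibrozil on day 1 is above 0 on plates 1 and 5 and below 0 on plates 3 and 7.

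The stress gene Ddit3, which codes for the transcription factor CHOP and was looked at by plate after its values were seen, split the gemfibrozil libraries along the same plates. On day 1 it was at 1149 and 2190 CPM (co-culture and monoculture) on plate 1 and at 1564 and 1504 on plate 5, but at 41.7 and 38.8 on plate 3 and 64.1 and 187 on plate 7, with vehicle at 41.6 to 119. On day 3 plate 7 held 135 and 56.8 CPM and the other libraries 952 to 1559. Cyp4a1, a PPAR-alpha target chosen in the same way, was at 342 and 608 CPM on plate 3 and at 1.13 to 14.99 on the other plates on day 1, with vehicle at 3.28 to 10.96. The part of this split in the members' response to gemfibrozil was not tested.

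Doses below the top one did not move the members past the threshold. In 24 such comparisons 0 of 168 member values were called with edgeR, 15 had an unadjusted p under 0.05, and 13 of these were on day 3. These comparisons were not run with DESeq2. The differences ran from -1.03 to 3.39 with a median of 0.12. The highest were Asns on day 3 with gemfibrozil 100 µM (3.39 ± 0.96, adjusted p = 0.0789) and 10 µM (3.27 ± 0.95, adjusted p = 0.0744), where the plate 9 libraries held 184 to 244.7 CPM and the others 0 to 31.1. Of all probes, 15% were called with gemfibrozil 100 µM on day 1, where the members' median was -0.21. The shares were 0.112% and 0.0219% with ketoconazole 10 µM on days 1 and 7, 0.016% with GW7647 0.01 µM on day 1, 0.136% and 0.0521% with GW7647 0.1 µM on days 1 and 3, and 0% in the other 18.

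The top doses were compared with each other in 18 pairs, whose doses differ between compounds, so that each compares 2 dose groups of 1 day. The pairs with phenobarbital include monoculture libraries whose compound label is ketoconazole, and no pair was run in co-culture alone. On day 1 ketoconazole exceeded GW7647 in 6 of 7 members (all but Shmt2, 1.05 to 1.97, with 17.4% of all probes called), phenobarbital exceeded it in 4 (Mthfd2 1.94, Psat1 1.45, Pycr1 1.30 and Slc7a5 1.43, 14% of all probes) and gemfibrozil in 3 (Mthfd2 1.51, Psat1 0.90 and Slc7a5 1.88, 11.7%). Pycr1 was lower with gemfibrozil than with ketoconazole (-0.98 ± 0.29, adjusted p = 0.0186, 10.8% of all probes). No member was called between phenobarbital and gemfibrozil (2.73%) or ketoconazole (6.39%) on day 1, with 2 and 1 at an unadjusted p under 0.05. With plate as a block Phgdh too was lower with gemfibrozil than with ketoconazole (-1.05, adjusted p = 0.0129). Against GW7647 under phenobarbital the block added Phgdh (0.90, adjusted p = 0.0314) and a lower Shmt2 (-0.60, adjusted p = 0.0341), and against gemfibrozil it added Pycr1 (0.88, adjusted p = 0.0186). Of 12504 probes the block called 1883 for gemfibrozil against ketoconazole. It called 2505 for phenobarbital against GW7647 and 627 for phenobarbital against gemfibrozil.

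On day 3 Slc7a5 was higher with gemfibrozil than with GW7647 (2.16 ± 0.46, adjusted p = 0.00116, 5.92% of all probes), and with phenobarbital Pycr1 (1.77 ± 0.43, adjusted p = 0.00285) and Slc7a5 (1.94 ± 0.49, adjusted p = 0.00389) were higher than with GW7647 (13%). No member was called between gemfibrozil and ketoconazole (2.02%), ketoconazole and GW7647 (5.31%), phenobarbital and gemfibrozil (0.67%) or phenobarbital and ketoconazole (2.34%), with 2, 0, 1 and 2 at an unadjusted p under 0.05. The block raised the count of gemfibrozil over GW7647 to 3 with Mthfd2 (1.11, adjusted p = 0.0252) and Pycr1 (0.87, adjusted p = 0.0281), and called Mthfd2 (1.41, adjusted p = 0.00658) and Pycr1 (1.16, adjusted p = 0.00506) for ketoconazole over GW7647. For phenobarbital over GW7647 the block turned the sign of Asns, from -0.78 ± 0.95 (adjusted p = 0.613) to 1.19 (adjusted p = 0.0395), and without plate 9 the Asns value was 1.13 ± 0.66 (adjusted p = 0.264). It also added Mthfd2 (1.69, adjusted p = 7.347e-04) and Psat1 (0.51, adjusted p = 0.0455). The block also called Slc7a5 for gemfibrozil over ketoconazole (1.38, adjusted p = 0.04998), and Pycr1 for phenobarbital over gemfibrozil (1.63, adjusted p = 4.448e-04) and over ketoconazole (1.34, adjusted p = 0.00252). Of 13439 probes the block called 1773, 1063 and 2750 for gemfibrozil, ketoconazole and phenobarbital against GW7647. It called 603 for gemfibrozil against ketoconazole, and 350 and 875 for phenobarbital against gemfibrozil and ketoconazole.

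With plate 9 left out of day 3, ketoconazole exceeded GW7647 in Mthfd2 (1.33 ± 0.40, adjusted p = 0.0357) and Pycr1 (1.32 ± 0.36, adjusted p = 0.0193), with 4.79% of all probes called. Phenobarbital exceeded it in Mthfd2 (1.56 ± 0.42, adjusted p = 0.00743), Pycr1 (2.45 ± 0.39, adjusted p = 5.356e-06) and Slc7a5 (1.72 ± 0.52, adjusted p = 0.0165), against 13.8% of all probes. Gemfibrozil exceeded it in Slc7a5 (1.85 ± 0.51, adjusted p = 0.0223, 4.04%). Pycr1 was higher with phenobarbital than with ketoconazole (1.14 ± 0.36, adjusted p = 0.0498, 4.23%), close to the threshold, and was not called in the fit of all libraries (1.15, adjusted p = 0.180). No member was called between phenobarbital and gemfibrozil (0.925%) or between gemfibrozil and ketoconazole (1.91%), with 3 and 1 at an unadjusted p under 0.05, and DESeq2 was not run on these pairs.

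On day 7 Asns and Pycr1 were higher with phenobarbital than with GW7647 or gemfibrozil. Against GW7647 the differences were 2.47 ± 0.64 (Asns, adjusted p = 0.00566) and 1.52 ± 0.33 (Pycr1, adjusted p = 8.743e-04), with 15.1% of all probes called. Against gemfibrozil they were 2.03 ± 0.67 (adjusted p = 0.0403) and 1.82 ± 0.35 (adjusted p = 5.74e-04), with 9.21%. No member was called in the other pairs, gemfibrozil against GW7647 (0.0073%), gemfibrozil against ketoconazole (1.46%), ketoconazole against GW7647 (2.55%) and phenobarbital against ketoconazole (1.36%), with 0, 3, 1 and 1 at an unadjusted p under 0.05. With plate as a block phenobarbital exceeded ketoconazole in Pycr1 (1.02, adjusted p = 0.0180) and Slc7a5 (1.13, adjusted p = 0.0465) and GW7647 in Slc7a5 (1.32, adjusted p = 0.00393), ketoconazole exceeded GW7647 in Asns (2.08, adjusted p = 0.0170), and Phgdh was lower with gemfibrozil than with ketoconazole (-0.83, adjusted p = 0.0373). In these pairs, in this order, the block called 661, 3416, 975 and 616 of 13707 probes.

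Whether a response differed between days was tested directly in 12 differences, and only Asns was called. Its response to gemfibrozil was larger on day 3 than on day 1 by 3.86 ± 1.01 (adjusted p = 0.0178) and smaller on day 7 than on day 3 by -4.52 ± 1.06 (adjusted p = 0.00413). For GW7647 the values were 3.50 ± 1.01 (adjusted p = 0.0298) and -3.93 ± 1.02 (adjusted p = 0.0145). Day 3 holds the libraries of plate 9, and with plate as a block, in a fit of the vehicle and top-dose groups, the 4 values were 1.98 (adjusted p = 0.447), -2.68 (adjusted p = 0.114), 1.82 (adjusted p = 0.559) and -2.35 (adjusted p = 0.450). The shares of all probes called for day 3 against 1, day 7 against 1 and day 7 against 3 were 3.81%, 0.317% and 10.7% with gemfibrozil, 3.61%, 0% and 4.2% with GW7647, 0.0472%, 1.07% and 0.182% with ketoconazole, and 0.169%, 0.115% and 0.00675% with phenobarbital. For phenobarbital, whose calls fell from 4 to 1 between days 1 and 7, no member's response was called different between days, with 1 at an unadjusted p under 0.05 in each difference. For ketoconazole none was called either, with 1, 4 and 2 at an unadjusted p under 0.05.

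Other genes of the amino acid response were read from a list of regulators and targets, of which 23 probes were tested. Phenobarbital raised 9 on day 1, 7 on day 3 (and lowered 1) and 6 on day 7, gemfibrozil 9, 11 and 0, ketoconazole 9, 0 and 0, and GW7647 0 on each day. The shares of all probes that were higher are those given with the members' counts. The shares that were lower on days 1, 3 and 7 were 7.77%, 7.55% and 3.28% with phenobarbital, 7.51%, 7.02% and 0% with gemfibrozil, 9.18%, 2.05% and 0.146% with ketoconazole and 0.04%, 0.0149% and 0% with GW7647. With plate 9 left out of day 3, phenobarbital raised 8 and lowered 1 of these 23 probes, gemfibrozil raised 6, and ketoconazole and GW7647 raised 0, where 10.3%, 4.52%, 3.28% and 0% of all probes were lower. In co-culture alone phenobarbital raised 8, 4 and 0 on days 1, 3 and 7. The list's median differences on days 1, 3 and 7 were 0.78, 0.56 and 0.68 with phenobarbital, 0.60, 1.01 and 0.42 with gemfibrozil, 0.50, 0.34 and 0.33 with ketoconazole and 0.08, 0.18 and 0.16 with GW7647. Atf4, named as the regulator itself and not by its rank, rose on day 1 by 1.496 ± 0.235 with phenobarbital (adjusted p = 2.371e-06), 1.25 ± 0.23 with gemfibrozil (adjusted p = 9.869e-05) and 1.25 ± 0.23 with ketoconazole (adjusted p = 5.13e-05). Its libraries were at 144 to 267 CPM in vehicle and at 309 to 914, 250.2 to 727 and 332 to 677. Trib3, a pseudokinase induced by the same pathway, rose by 2.49 ± 0.34, 1.71 ± 0.33 and 2.03 ± 0.33, and Sesn2, a leucine sensor that restrains mTORC1, by 1.95 ± 0.33 with gemfibrozil and 1.80 ± 0.33 with ketoconazole. On day 7 the differences with phenobarbital were 1.26 ± 0.27 for Atf4 (adjusted p = 0.00143), 4.57 ± 0.74 for Ddit3 (adjusted p = 2.002e-05) and 3.35 ± 0.62 for Trib3 (adjusted p = 2.299e-04). The treated libraries spread widely. Atf4 at 141.3 to 728.1 CPM and Ddit3 at 45.25 to 3887 overlapped vehicle (123.6 to 245.8 and 29.04 to 94.64). Trib3 at 77.35 to 1041 lay above its vehicle range of 13.14 to 69.11.

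Neighbouring enzymes of these routes were read from 2 further lists, whose counts stand beside the same shares of all probes. Among 13 probes of other serine, glycine and one-carbon genes, phenobarbital raised 0 and lowered 1 on day 1, raised 1 and lowered 1 on day 3 and raised 1 on day 7. Gemfibrozil raised 2 and lowered 1 on day 1 and lowered 1 on day 3, ketoconazole raised 2 and lowered 3 on day 1, and none was called with GW7647 or on day 7 with gemfibrozil or ketoconazole. Gldc, the glycine decarboxylase of the glycine cleavage system, fell by 3.39 ± 0.51 with ketoconazole (adjusted p = 6.346e-07) and by 1.94 ± 0.47 with gemfibrozil (adjusted p = 0.00218) on day 1, and its partner Amt fell by 1.36 ± 0.28 with ketoconazole. Mthfd1, the cytosolic relative of Mthfd2, rose with phenobarbital by 0.75 ± 0.26 on day 3 (adjusted p = 0.0423, 0.74 ± 0.24 and 0.0230 without plate 9) and by 0.84 ± 0.20 on day 7 (adjusted p = 0.00366). Without plate 9 phenobarbital raised 3 and lowered 1 of the 13 on day 3, gemfibrozil lowered 1, and ketoconazole raised 1 and lowered 1. In co-culture alone phenobarbital moved 0 past the threshold on each day, with 2, 3 and 1 at an unadjusted p under 0.05.

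Of 11 probes of other proline, asparagine, aspartate and glutamine genes tested on day 1, phenobarbital raised 1 and lowered 3, gemfibrozil lowered 2 and ketoconazole raised 2 and lowered 2. Aspg, an asparaginase that breaks down the product of Asns, rose by 3.07 ± 0.60 with ketoconazole (adjusted p = 9.266e-05) and by 1.84 ± 0.57 with phenobarbital (adjusted p = 0.0181). Glud1, glutamate dehydrogenase, fell by 2.28 ± 0.35 with phenobarbital, 2.23 ± 0.35 with ketoconazole and 1.72 ± 0.34 with gemfibrozil. Later, phenobarbital and gemfibrozil each lowered 1 of 12 probes on day 3, and phenobarbital raised 1 of 11 on day 7. Without plate 9 phenobarbital lowered 2 of 11 on day 3, gemfibrozil lowered 1, and ketoconazole raised 1 and lowered 1. In co-culture alone phenobarbital lowered 1 of 11 on day 1 and moved 0 past the threshold on days 3 and 7, with 5 and 0 at an unadjusted p under 0.05. Among 13 or 14 probes of other amino acid transporters, phenobarbital raised 3, 2 and 1 on days 1, 3 and 7 (9.26%, 5.1% and 2.81% of all probes). Gemfibrozil raised 3, 3 and 0 (9.84%, 13.1% and 0%) and ketoconazole 2, 1 and 1 (8.13%, 1.14% and 0.372%). At most 1 was lowered in any of these. Without plate 9 the day 3 counts raised were 2, 1 and 1, and in co-culture alone phenobarbital raised 0, 2 and 1 (5 on day 1 at an unadjusted p under 0.05). Both probes of Slc7a1, an importer of arginine and lysine, rose on day 1 with all 3 compounds (1.05 to 2.83). Slc7a11, the cystine importer, rose with phenobarbital by 5.15 ± 0.86 on day 3 (adjusted p = 1.236e-05) and 4.38 ± 0.69 on day 7 (adjusted p = 1.45e-05). It also rose with ketoconazole, by 3.34 ± 0.79 on day 3 (adjusted p = 0.00670) and 2.77 ± 0.65 on day 7 (adjusted p = 0.0227), and with gemfibrozil by 2.91 ± 0.77 on day 3 (adjusted p = 0.00606). Without plate 9 the day 3 differences of Slc7a11 were 5.13, 3.33 and 2.93 with phenobarbital, ketoconazole and gemfibrozil, and all 3 passed the test.

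The levels of cell type markers also moved at the top doses, but not in the same way with each compound. Lymphocyte markers (3 of 4 measured) stayed near 0, at 5.97 CPM or less in sum. Of 8 hepatocyte markers 5 fell with gemfibrozil and 4 with ketoconazole on day 1, and 4, 1 and 2 with gemfibrozil, ketoconazole and phenobarbital on day 3, and none rose. Of all probes 7.51% and 9.18% were lower on day 1, and 7.02%, 2.05% and 7.55% on day 3. Their summed level on day 3 had a median of 14800 CPM (range 6600 to 40500) with gemfibrozil, 21400 (6090 to 27200) with phenobarbital and 24700 (7900 to 42200) with ketoconazole, beside 42400 (31100 to 65800) in vehicle. Summed cholangiocyte markers on day 3 were at 34 CPM (8.71 to 119) with phenobarbital and 36.9 (15.5 to 613) with gemfibrozil, beside 868 (296 to 1550) in vehicle. Macrophage markers were at 49.2 (16.6 to 96.5) and 62.3 (10.8 to 134) beside 166 (35.4 to 431), mesenchymal ones at 12.8 (3.08 to 31.4) and 27.3 (5.13 to 60.7) beside 91.4 (29.3 to 326), and endothelial ones at 1.08 (0.342 to 3.21) and 2.24 (0.75 to 8.77) beside 15.3 (2.9 to 49.7) in vehicle. Among the markers tested on day 3, phenobarbital lowered 1 of 4 cholangiocyte, 1 of 7 macrophage, 2 of 5 mesenchymal and 3 of 5 endothelial probes, and gemfibrozil 2, 2, 2 and 1, with 1 macrophage probe higher. Beside these stand 7.55% of all probes lower with phenobarbital, and 7.02% lower and 13.1% higher with gemfibrozil. Without plate 9 phenobarbital lowered the same numbers, gemfibrozil 1, 0, 2 and 1, and hepatocyte markers fell in 4, 2 and 3 of 8 cases with phenobarbital, gemfibrozil and ketoconazole. The shares of all probes lower were then 10.3%, 4.52% and 3.28% with these 3 compounds. With ketoconazole on day 3 cholangiocyte markers were at 504 CPM (321 to 895) and macrophage markers at 68.7 (14.4 to 273). Its mesenchymal and endothelial sums were 36.7 (6.6 to 80.3) and 4.53 (0 to 15.8). On day 1 these sums had ketoconazole medians of 74.1, 70.7, 9.72 and 23, beside 44.3, 75.4, 20 and 19.9 in vehicle. The part of these shifts in the rise of the members was not tested.

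The 7 members were only loosely tied to each other from library to library. On log2 CPM centred within culture and day over all libraries, Pearson's r was highest for Asns and Mthfd2 (0.48), Mthfd2 and Pycr1 (0.45), Mthfd2 and Psat1 (0.43) and Psat1 and Pycr1 (0.41). It was lowest for Asns with Phgdh (-0.25) and with Shmt2 (-0.21), which were each below their group in 7 of 9 libraries of plate 9. Of 14817 probes, those most like the members' mean were Eprs (r = 0.73), Zfp238 (0.72), Aars (0.70), Ipcef1 (0.69), Trib3 (0.68), Insig1 (0.65), Ddit3 (0.64) and Nop56 (0.63). Eprs and Aars are tRNA synthetases. The most unlike were LOC500300 (-0.69), Tp53i11 (-0.67) and Wipi1 (-0.66). Atf4 itself had 0.48. These correlations describe libraries that share plates, depth and treatments. The centring leaves the responses to the doses and the shift of plate 9 in the values. No test was made on them.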

How the data were processed

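The files hold whole-number counts per TempO-Seq probe, deposited by the authors and made from sequenced ligation products by the assay's supplier per the labels' protocols. Bowtie is named, with no version, per the submitters' processing notes. The genome build is not given in the sources used here. Libraries were grouped by culture, treatment and day. Conflicting labels were settled by the description: 33 monoculture libraries were used as phenobarbital though their compound label is ketoconazole, and 3 co-culture GW7647 libraries as 0.1 µM though their dose label is 1 µM. The phenobarbital doses are given in mM, as in the series' design.

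Counts were tested in R 4.3.3 with edgeR 4.0.16: TMM scaling, filterByExpr with a minimum count of 10, and the quasi-likelihood test in 1 fit per day, with Benjamini-Hochberg adjustment over all probes tested and a threshold of 0.05. The standard error is the fold change divided by the root of the F value. Vehicle days had a fit of their own, and differences between days a fit of all 78 groups. Correlations used log2 CPM with a prior count of 2. The scripts were tested on simulated data. DESeq2 1.42.0, RLE size factors, no filter, a covariate of probes with at least 5 CPM, left-out libraries and plates, smaller fits and plate as a block were the alternatives. Leaving plate 9 out of the pairs and gene lists, and reading those lists in co-culture alone, were chosen after seeing the data.

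The titles name the plate. Within a day, libraries of the same plate deviated from their group means together (mean r 0.197, 0.169 and 0.262 on days 1, 3 and 7). Libraries of other plates had -0.065, -0.046 and -0.087, values that centring on group means itself pulls below 0. On day 3 plate 9 had 0.813, and plates 1, 3, 5 and 7 had 0.105 to 0.215. The plate was taken to pair libraries, which the plate block uses and the main fit does not. The members and gene lists were chosen with earlier results of these data known. All members are named. From the other lists, the called probes with the 3 smallest p per list and comparison could be named. The 8 probes most like the members and the 3 most unlike are given.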

Additional observations from a re-analysis of the deposited data

Results flagged for a closer look

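Each member was looked at in each vehicle and top-dose group of 4 or 5 libraries, which gave 189 cases of 1 gene in 1 group. In 8 of them the lowest or highest library lay far from the others, and chance gives about 1 in 20. For Asns in co-culture vehicle these were the highest library of day 1 (13.57 CPM, plate 5, next 9.898) and the lowest of day 3 (0.7588 CPM, plate 1, next 5.055). For Mthfd2 they were the lowest co-culture library with ketoconazole 30 µM on day 3 (14.84 CPM, plate 3), the lowest monoculture library with that dose on day 7 (0 CPM, plate 1, the library with under 1000000 counts) and the highest monoculture library with GW7647 1 µM on day 1 (8.317 CPM, plate 1). Pycr1 had a low monoculture library with ketoconazole 30 µM on day 1 (30.31 CPM, plate 5). Slc7a5 had low libraries with gemfibrozil 1000 µM on plate 7, in co-culture on day 3 (3.933 CPM) and in monoculture on day 7 (2.568 CPM).

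In the fit of all libraries the Asns response was called different between days, each time with day 3 on 1 side. Plate 9 is found on day 3 alone and holds no vehicle, so its shift and a day difference cannot be told apart in these calls. Without plate 9 the day 3 response was 2.15 with gemfibrozil and 1.44 with GW7647, beside 4.32 and 3.36 with it. From day 1 to day 3 it was larger by 3.502 with GW7647 1 µM and by 3.858 with gemfibrozil 1000 µM, and from day 3 to day 7 the differences were -3.926 and -4.516. None of these 4 passed the threshold with plate as a block.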

How the results depend on the processing

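For the 24 member differences that passed the threshold, alternatives gave 269 values, of which 225 kept direction and threshold, 43 kept the direction alone and 1 changed sign: Mthfd2 with gemfibrozil 1000 µM on day 1 without plate 5 (-0.022, adjusted p = 0.979, and up to 1.194 with another plate left out). All 24 held with DESeq2 and 22 with plate as a block, but 12 without plate 5. The counts of members called moved as follows. Gemfibrozil on day 1 (3) gave 4 with the block, 1 with no filter and 1 in a fit of only the groups compared, and 0 to 3 when 1 plate was left out. Gemfibrozil on day 3 (4) gave 2 without plate 9, and 2 to 5 with another plate left out. Ketoconazole on day 1 (5) gave 6 with the block and 3 to 5 with 1 plate left out. Of 12504 probes the block called 2768 with gemfibrozil and 2682 with ketoconazole on day 1, in either direction. On day 3 ketoconazole (1) gave 2 with DESeq2, 0 with no filter, 4 in the smaller fit, 3 without plate 9, 5 with the replicate block and 0 with any other plate left out. Phenobarbital gave 1 to 4 on day 1 (4) with 1 plate left out. On day 3 (3) it gave 5 with DESeq2, 5 with the covariate, 6 in the smaller fit, 7 without plate 9, 6 with the block and 2 to 3 with another plate left out. On day 7 (1) it gave 2 with DESeq2, the covariate, the smaller fit or without the shallow library, 3 with the block and 0 to 2 with 1 plate left out. GW7647 on day 3 (0) gave 2 with DESeq2 and 2 with RLE. In vehicle, day 7 against 1 (2) gave 1 with the covariate, 1 with the block and 1 to 2 with 1 plate left out, and day 7 against 3 (0) gave 0 to 1. Where a count moved for reasons other than fewer samples, the cause was not tested. With the block, the differences between days gave 0 calls for Asns. The planned block fit of all libraries for these was not run, and a fit of the vehicle and top-dose groups, added after the data were seen, took its place. Low counts of Asns and Slc7a5 limit what single libraries can show.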
